A study of Arabidopsis thaliana with 222 samples.

Results

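The 10 genes described here are the members of the triterpene gene clusters of the Arabidopsis root, taken by gene identifier from the 32311 genes of the count matrix. They are the 4 genes of the thalianol cluster (THAS1, THAH, THAD and AT5G47980), the 3 genes of the marneral cluster (MRN1, CYP71A16 and CYP705A12), the arabidiol pair (PEN1 and CYP705A1) and PEN3. Their transcripts were measured by RNA sequencing in 222 root libraries that form 37 groups of 6. Seedlings were raised axenically for about a week and then kept for about a further week on plates without bacteria (NB) or with a single bacterial isolate, and roots were pooled, 10 or more to a library. The wild type Col-0 was sampled in NB and with 16 isolates: L76, L180, L196, L264, L339, L343, L344, L359, L384, L412, L469, RCL115, RMF8, RMF27, RMF217 and RMF331. The double mutant arf7 arf19, which carries lesions in the auxin response factors ARF7 and ARF19, was sampled in NB and with L344. The mutant nph4-1, for which the study's list of lines gives the same ARF7 insertion as for the double mutant, was sampled in NB and with L344, L359 and RCL115. The mutant lbd16-1, with a lesion in the lateral root transcription factor LBD16, was sampled in NB and with L76, L180, L343, L359, L384, L412, RMF8 and RMF217. The mutant gnom184, with a lesion in GNOM, a factor of vesicle traffic needed for auxin transport, was sampled in NB and with L196, L339, L469 and RMF27. Each genotype is 1 line. Per the study's methods, the 6 libraries of a group are 3 biological replicates from each of 2 runs of the experiment, and no label gives the run of a library.

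Plants make triterpenes by folding 2,3-oxidosqualene with an oxidosqualene cyclase, after which cytochrome P450 enzymes oxidise the product and acyltransferases add acyl groups. In Arabidopsis several cyclases of specialised metabolism sit beside the tailoring enzymes of the same route, and these clusters are known to be expressed mainly in roots. Thalianol derivatives from the root are known to act on the growth of root bacteria, and cleavage of arabidiol gives a volatile homoterpene that roots release upon infection by an oomycete.

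All positions are on the RefSeq annotation of the TAIR10.1 genome. In the thalianol cluster, the thalianol synthase THAS1 (AT5G48010) lay at chr5:19456837-19461706 on the plus strand. The thalianol hydroxylase THAH (AT5G48000, CYP708A2) lay at chr5:19444103-19447866 on the minus strand, the desaturase THAD (AT5G47990, CYP705A5) at chr5:19434758-19436749 on the plus strand, and the acyltransferase AT5G47980 at chr5:19428888-19430517 on the plus strand. In the marneral cluster, the marneral synthase MRN1 (AT5G42600) lay at chr5:17053453-17058245 on the plus strand, the P450 CYP71A16 (AT5G42590), known to oxidise marneral products, at chr5:17031024-17033800 on the minus strand, and the P450 CYP705A12 (AT5G42580) at chr5:17023502-17025361 on the minus strand. The arabidiol synthase PEN1 (AT4G15340) lay at chr4:8754440-8760600 and the arabidiol-cleaving P450 CYP705A1 (AT4G15330) at chr4:8751320-8753297, both on the minus strand. The tirucalladienol synthase PEN3 (AT5G36150) lay at chr5:14220634-14226211 on the minus strand. All 10 are annotated as protein-coding.

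The 250 bases before the annotated gene starts of the 4 cyclases are shown because these enzymes open the pathways and their transcripts moved in different directions with bacteria. The windows are chr5:19456587-19456836 (THAS1, plus strand), chr5:17053203-17053452 (MRN1, plus strand), chr4:8760601-8760850 (PEN1, minus strand) and chr5:14226212-14226461 (PEN3, minus strand), each written 5′ to 3′ on the gene's own strand. Capitals mark the letters TATAAA on either strand.
THAS1: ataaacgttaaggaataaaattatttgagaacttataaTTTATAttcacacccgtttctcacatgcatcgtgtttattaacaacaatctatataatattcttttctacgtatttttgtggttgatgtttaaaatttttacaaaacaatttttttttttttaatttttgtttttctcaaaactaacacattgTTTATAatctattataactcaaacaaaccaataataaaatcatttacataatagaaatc
MRN1: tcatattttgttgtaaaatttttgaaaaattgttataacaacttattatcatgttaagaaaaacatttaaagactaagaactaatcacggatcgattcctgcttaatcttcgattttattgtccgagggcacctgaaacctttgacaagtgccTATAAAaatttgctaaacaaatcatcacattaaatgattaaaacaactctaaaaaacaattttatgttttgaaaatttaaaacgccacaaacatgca
PEN1: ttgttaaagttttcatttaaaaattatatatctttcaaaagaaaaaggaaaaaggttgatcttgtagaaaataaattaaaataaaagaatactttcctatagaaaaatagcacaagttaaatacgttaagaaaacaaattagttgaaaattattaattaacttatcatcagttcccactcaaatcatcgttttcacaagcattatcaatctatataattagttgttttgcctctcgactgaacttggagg
PEN3: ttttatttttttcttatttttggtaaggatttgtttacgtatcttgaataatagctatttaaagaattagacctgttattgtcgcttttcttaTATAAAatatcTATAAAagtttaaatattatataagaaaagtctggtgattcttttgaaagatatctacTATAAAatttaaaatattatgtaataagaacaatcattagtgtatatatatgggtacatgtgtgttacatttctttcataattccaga

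These windows were rich in A and T, at 79.2% in THAS1, 72.8% in MRN1, 75.2% in PEN1 and 78.4% in PEN3, against a median of 68.8% over 27443 promoters of the same length. Of all promoters, 97.3% had a share at or below that of THAS1 and 96.2% a share at or below that of PEN3. TATAAA was found on either strand in 7 of the 10 members and in 47.3% of all promoters, and it was not in the windows of PEN1, THAH and CYP705A12. Neither the auxin response element TGTCTC (10.9% of all promoters, both strands) nor its variant TGTCGG (4.16%), which begins with the same letters, was found in any of the 10 windows. The same held for the G-box CACGTG (6.49%) and for the W-box letters TTGACT (19.1%), while TTGACC (12.2%), which differs from TTGACT in its last letter, was found in CYP71A16. A match is a description of letters, and a missing match says only that these letters are not in these windows.

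Levels are given as CPM, counts scaled to a common library total. Library totals ran from 10255732 to 29735838 estimated counts with a median of 18434824, and all 10 members were among the 21635 genes tested. ARF7 had a median of 29.2 CPM in arf7 arf19 and 51.6 in nph4-1 against 93.5 in Col-0, ARF19 9.48 in arf7 arf19 against 42.6, and LBD16 3.24 in lbd16-1 against 6.61. The ARF7 ranges of arf7 arf19 (28.6 to 32.7 CPM) and nph4-1 (47.7 to 61.5) did not overlap. GNOM, with medians of 87.3 CPM in gnom184 and 94.1 in Col-0 and overlapping ranges, gave no check of the gnom184 labels. No marker of root hairs, epidermis, cortex, endodermis, stele or root tip was at 0 throughout an axenic group. The largest shift of the median over all genes in any comparison was 0.03 on the log2 scale. In whole roots, fewer cells of a type and less RNA per cell cannot be told apart.

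One library stood apart, replicate 2 of gnom184 NB. Its mean correlation of log2 CPM was 0.9414 with its own group, where the other 5 had 0.9562 to 0.9619, and 0.9449 with Col-0 NB, where the other 5 had 0.9366 to 0.9496. Its summed root hair markers (241.1 CPM against 85.5 to 122.1 in the other 5), endodermis markers (305.5 against 144.1 to 212.3) and non-hair epidermis markers (19.8 against 11.8 to 13.7) lay inside the ranges of Col-0 NB, which were 151.8 to 252.1, 238.5 to 348.4 and 18.9 to 25.2, as did its cortex and stele markers. Its green shoot markers (1356 CPM against 249.7 to 438.6 in Col-0 NB) lay above that range, as did those of 3 other libraries of the group, the highest of them at 1223, and its root tip markers (40.8 against 43.6 to 60.5) lay below. Its MRN1 level of 79.1 CPM stood above the 13.9 CPM of the next library in its group and above every library of Col-0 NB. Where leaving it out changed a call described here or moved a called value by over 1.5 times, the value without it is given. In addition, the titles of 2 libraries, 1 of gnom184 with L196 and 1 of arf7 arf19 with L344, give either of the same pair of library numbers, and their genotype and treatment labels were used. Without both libraries, the 44 named contrasts kept their direction and call. These are each member's largest in a comparison and those going against the rest. Only those of gnom184 with L196 use either library, and the others could hardly change. No contrast of arf7 arf19 with L344 is among the 44, so this check does not bear on its values.

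Among the cyclases in axenic Col-0, THAS1 stood at 171 ± 35.2 CPM per kb of transcript (SD, n = 6), MRN1 at 6.58 ± 2.71, PEN1 at 6.17 ± 0.753 and PEN3 at 0.482 ± 0.178. THAS1 lay wholly above MRN1, MRN1 and PEN1 overlapped, and both lay wholly above PEN3. The P450s THAD (184 ± 47.8 CPM per kb) and THAH (123 ± 25.6) overlapped THAS1, and these 3 thalianol genes lay apart from all the others. Below them, CYP71A16 stood at 34.1 ± 7.86 CPM per kb, AT5G47980 at 23.1 ± 6.15, CYP705A12 at 13.8 ± 5.47 and CYP705A1 at 6.33 ± 1.14. Neighbours in this order overlapped, apart from the steps below THAH and above PEN3.

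Across the 37 groups, mean THAS1 ran from 214 to 1254 CPM (5.86-fold), lowest in gnom184 with L469 and highest in axenic arf7 arf19. THAH ran from 138 to 651 CPM (4.72-fold) and CYP705A12 from 11.7 to 80.2 CPM (6.83-fold), both lowest in gnom184 with L196 and highest in axenic arf7 arf19. THAD ran from 113 to 848 CPM (7.47-fold), AT5G47980 from 15.8 to 76.9 CPM (4.87-fold), MRN1 from 3.93 to 89.7 CPM (22.8-fold) and CYP71A16 from 31.1 to 112 CPM (3.59-fold). These last 4 were lowest in gnom184 with L469 and highest in nph4-1 with RCL115. The arabidiol pair was ordered differently, with the lowest mean of both genes in axenic Col-0. PEN1 ran from 16.2 to 33.4 CPM (2.06-fold), highest in gnom184 with L469, and CYP705A1 from 12.1 to 29.9 CPM (2.48-fold), highest in nph4-1 with L344. PEN3 was under 1 CPM in 77 of 222 libraries and ran from 0.354 to 7.86 CPM (22.2-fold), lowest in gnom184 with L469 and highest in gnom184 with RMF27. When the 37 means of a member were put in order, the libraries of neighbouring groups overlapped for every member, except for THAH between nph4-1 with RCL115 and axenic arf7 arf19.

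**Figure D1:**
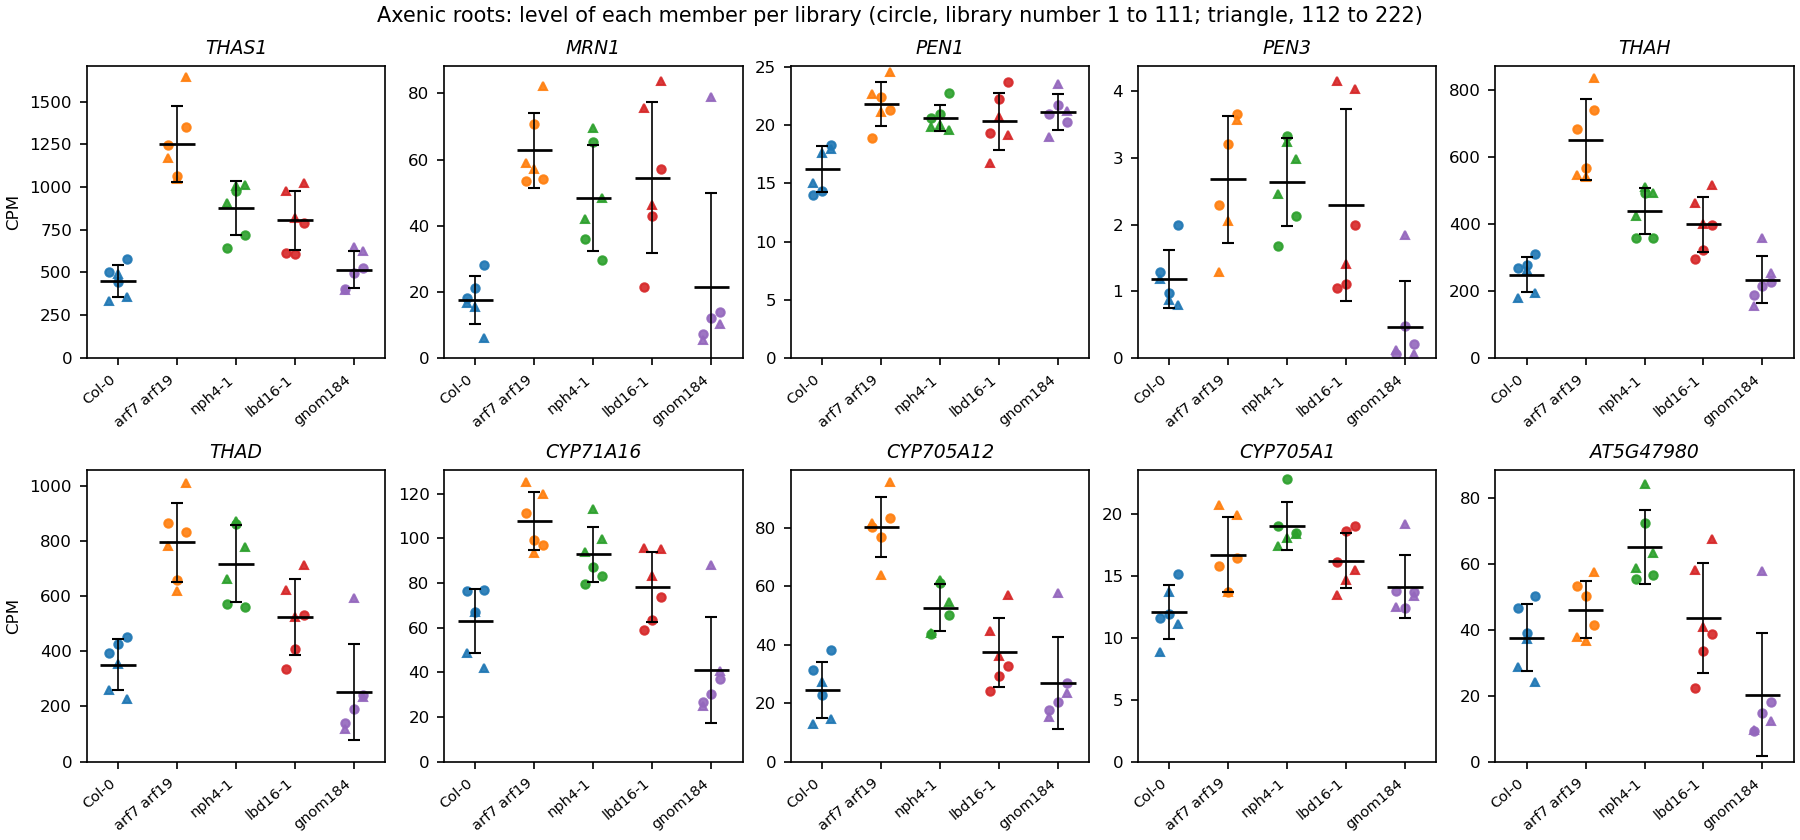
Level of each member in CPM in the axenic libraries of the 5 genotypes, on linear axes that start at 0; points are libraries (circles for library numbers 1 to 111, triangles for 112 to 222), the black line is the mean and bars are the SD (n = 6), cut at 0. THAS1 lay between 335 and 580.0 CPM in Col-0 and between 1046 and 1642 in arf7 arf19, and 1 gnom184 library stood far above the other 5 in MRN1.

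The first comparison asked how the members differ between axenic mutants and axenic Col-0. Of 40 tests, 26 were higher and 3 lower at an adjusted p under 0.05 in edgeR's quasi-likelihood test, which gives every adjusted p below, and the median log2 difference was 0.59. In arf7 arf19, 9 of the 10 members rose (20.8% of all genes were called higher), in nph4-1 all 10 rose (6.07%), and in lbd16-1 6 of 10 rose (2.45%). In gnom184, 1 rose (14.5%) and 3 fell (17.5% of all genes were called lower). All 4 comparisons share the Col-0 NB libraries.

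THAS1 had 335, 465 and 580.0 CPM as its lowest, median and highest library in axenic Col-0, and 1046, 1209 and 1642 in arf7 arf19. The groups did not overlap, and THAS1 rose by 1.48 ± 0.18 (log2, SE) in the double mutant (edgeR, adjusted p = 2.8e-12). In nph4-1 it had 644, 942 and 1013 CPM, a rise of 0.96 ± 0.18 (edgeR, adjusted p = 3.5e-05), and in lbd16-1 607, 804 and 1022 CPM, a rise of 0.84 ± 0.18 (edgeR, adjusted p = 0.0010). Neither of these groups overlapped Col-0. In gnom184, with 395, 511 and 650.3 CPM, the libraries overlapped those of Col-0 and the difference of 0.20 did not pass the test (edgeR, adjusted p = 0.4426).

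MRN1 went from 6.07, 17.4 and 28.1 CPM in Col-0 to 53.6, 58.1 and 82.3 in arf7 arf19, without overlap, a rise of 1.83 ± 0.41 (edgeR, adjusted p = 6.9e-05). It rose by 1.46 ± 0.41 in nph4-1 (adjusted p = 0.0080), without overlap, and by 1.62 ± 0.41 in lbd16-1 (adjusted p = 0.0059), with overlap. PEN1 rose in all 4 mutants by small amounts, from 0.33 in lbd16-1 to 0.43 in arf7 arf19, where the 18.9, 21.8 and 24.5 CPM of the mutant lay above the 14.0, 16.3 and 18.3 CPM of Col-0 (adjusted p = 7.3e-05). PEN3 rose by 1.14 ± 0.36 in arf7 arf19 (adjusted p = 0.0052) and by 1.12 ± 0.36 in nph4-1 (adjusted p = 0.0220), with libraries that overlapped those of Col-0 in both.

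Of the tailoring P450s, THAH went from 177, 266 and 310.1 CPM in Col-0 to 539.9, 624 and 835 in arf7 arf19, without overlap, a rise of 1.39 ± 0.15 (edgeR, adjusted p = 1.0e-15). CYP705A12 went from 12.9, 24.9 and 38.1 CPM to 63.7, 80.9 and 95.5, also without overlap, a rise of 1.71 ± 0.19 (adjusted p = 1.5e-14). THAD rose by 1.18 ± 0.20 in arf7 arf19 (adjusted p = 2.0e-07) and CYP71A16 by 0.77 ± 0.14 (adjusted p = 7.4e-07), neither overlapping Col-0. CYP705A1 rose most in nph4-1, from 8.88, 11.8 and 15.2 CPM to 17.4, 18.4 and 22.9, without overlap (0.66 ± 0.13, adjusted p = 4.1e-05). The acyltransferase AT5G47980 was the 1 member without a call in arf7 arf19 (0.29 ± 0.22, adjusted p = 0.2726), and in nph4-1 it rose by 0.79 ± 0.21 (adjusted p = 0.0059).

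In gnom184 the calls moved with replicate 2. With all 6 libraries, AT5G47980 fell by 0.92 (edgeR, adjusted p = 5.3e-04), CYP71A16 by 0.62 (adjusted p = 2.0e-04) and PEN3 by 1.53 (adjusted p = 0.0053), all with libraries that overlapped those of Col-0, while PEN1 rose by 0.38 (adjusted p = 8.7e-04) without overlap. Without replicate 2, AT5G47980 fell by 1.55 (adjusted p = 2.0e-09), CYP71A16 by 0.98 (adjusted p = 6.4e-10) and PEN3 by 2.74 (adjusted p = 1.0e-05), and THAD was called as well, at -0.93 (adjusted p = 5.8e-05). MRN1 stood at 0.24 with that library and -0.85 without it and was called in neither. PEN3 rests on few reads here, with 40 counts in all in gnom184 NB, of which 25 were in its highest library, against 128 in Col-0 NB.

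The libraries fall into ranges of library number, 1 to 111 and 112 to 222, with 3 of each group in each. Whether these ranges are the 2 runs of the experiment is not given in the sources used here. With the range as a term in the fit, the calls numbered 26 higher and 3 lower in axenic mutants, 51 and 10 with bacteria in Col-0, 28 and 76 in the mutants and 2 and 60 for interactions. As each group holds 3 libraries of each range, this term could hardly move a difference between groups. Nor does it take up shifts that differ between groups. The axenic levels shifted between the ranges. Mean THAS1 in Col-0 was 507 CPM in the low range and 393 in the high one, while in lbd16-1 it was 670.2 and 939. The lbd16-1 difference in THAS1 was 0.41 (not called) within the low range and 1.26 (called) within the high range, and that in MRN1 0.85 (not called) and 2.46 (called). The nph4-1 difference in THAS1 was 0.62 (not called) and 1.32 (called), whereas in arf7 arf19 THAS1 was called in both, at 1.29 and 1.74. CYP705A12 in gnom184 was called lower in the low range (-0.50) and higher in the high range (0.86), where its NB libraries had 15.3, 23.5 and, in replicate 2, 57.7 CPM. Without replicate 2 the high-range difference was 0.15 and was not called (edgeR, adjusted p = 0.7711), an alternative chosen after seeing the data. Of the 29 calls, 28 kept their sign in the low range and 29 in the high one, and 19 and 23 were called there in the same direction.

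Markers of other tissues differed between the axenic groups as well. Root hair markers were called lower in 12 of 24 axenic tests, root tip in 10 of 24 and endodermis in 10 of 20. Non-hair epidermis markers were lower in 4 of 8, cortex in 3 of 8 and stele in 6 of 20, with 1 higher. Green shoot markers were higher in 8 of 24 and lower in 0. Over all genes, 4.16% (lbd16-1) to 25.7% (arf7 arf19) were called lower and 2.45% to 20.8% higher. The 6 green shoot markers summed to a median of 863 CPM (566 to 1054) in arf7 arf19, 509.8 CPM (337 to 1356) in gnom184, 339.7 CPM (249.7 to 439) in Col-0, 286 CPM (244 to 508) in lbd16-1 and 333 CPM (309 to 449) in nph4-1. The 5 endodermis markers summed to 180.1 CPM (143 to 250.3) in arf7 arf19 and 185 CPM (144 to 306) in gnom184 against 309.5 CPM (239 to 348) in Col-0, 369.9 CPM (311 to 409.8) in lbd16-1 and 353 CPM (313 to 404) in nph4-1. The 2 non-hair epidermis markers summed to 9.20 CPM (8.56 to 10.5) in arf7 arf19 and 12.7 CPM (11.8 to 19.8) in gnom184. In Col-0 they summed to 22.6 CPM (18.9 to 25.2), in lbd16-1 to 22.3 CPM (18.9 to 23.5) and in nph4-1 to 20.7 CPM (19.0 to 23.4). None of these markers was at 0 throughout an axenic group, and their part in the differences of the triterpene genes was not tested.

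The second comparison asked how the members respond to bacteria in Col-0. Of 160 tests of a member with an isolate, 51 were higher and 9 lower, where over all genes 12.6% of the tests were called higher and 12.8% lower in edgeR's quasi-likelihood test. The arabidiol pair was higher in 27 of 32 tests, the marneral cluster higher in 14 and lower in 2 of 48, the thalianol cluster higher in 8 and lower in 7 of 64, and PEN3 higher in 2 of 16. All 16 comparisons share the Col-0 NB libraries.

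Of the cyclases, PEN1 was positive with every isolate and rose with 13 of 16, most with L180, from 14.0, 16.3 and 18.3 CPM to 21.6, 23.8 and 26.4. The groups did not overlap, and the rise was 0.56 ± 0.10 (edgeR, adjusted p = 6.2e-07). It was not called with L196, RCL115 and RMF217. THAS1 fell with 5 isolates (L76, L339, L344, L469 and RMF27), most with L469, from 335, 465 and 580.0 CPM to 196, 264.5 and 301, without overlap (-0.81 ± 0.18, adjusted p = 1.3e-04). MRN1 rose with RMF217, from 6.07, 17.4 and 28.1 CPM to 27.9, 49.2 and 67.9 (1.42 ± 0.41, adjusted p = 0.0282), the highest NB library lying just above the lowest with RMF217. It fell with L384 (-1.18 ± 0.45, adjusted p = 0.0356) and L469 (-1.18 ± 0.45, adjusted p = 0.0314), with overlap in both. PEN3 rose with RMF27, from 0.792, 1.08 and 1.99 CPM to 3.41, 5.20 and 5.90, without overlap (2.02 ± 0.35, adjusted p = 2.7e-07), and with L196 (1.16 ± 0.36, adjusted p = 0.0124), with overlap.

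CYP705A1, the arabidiol partner of PEN1, rose with 14 of 16 isolates, most with RMF27, from 8.88, 11.8 and 15.2 CPM to 19.2, 24.3 and 31.7, without overlap (1.07 ± 0.13, adjusted p = 9.1e-14). It was not called with RCL115 and RMF217. Its libraries lay wholly above those of NB with 9 isolates, and those of PEN1 with 5. The share of all genes with libraries apart in this way was not counted. CYP705A12 was positive with all 16 isolates and rose with 12, with a median log2 difference of 0.65, while its cluster partners MRN1 and CYP71A16 had medians of 0.14 and 0.06. Its size differed between the ranges of library number, with 5 of 16 rises called and a median of 0.42 in the low range and 10 called and a median of 0.99 in the high one. Its largest rise was with L264, from 12.9, 24.9 and 38.1 CPM to 42.8, 53.4 and 69.3, without overlap (1.12 ± 0.19, adjusted p = 3.8e-07). CYP71A16 rose with RMF217 alone, from 42.1, 67.0 and 77.0 CPM to 70.3, 87.9 and 95.4, with overlap (0.46 ± 0.14, adjusted p = 0.0388). The RMF217 calls of MRN1 and CYP71A16 were lost without Col-0 NB replicate 3 or 5, and that of CYP71A16 also without replicate 1.

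The calls of the thalianol tailoring genes differed in direction, and these genes were not tested against each other. Over the whole cluster, 12.5% of the tests were called higher and 10.9% lower. These shares were near those over all genes, 12.6% and 12.8%. THAD fell with L343 and L469, in the latter from 227, 374 and 452 CPM to 187, 247 and 269, with overlap (edgeR, -0.56 ± 0.20, adjusted p = 0.0198). THAH rose with 5 isolates (L196, L264, L359, RMF8 and RMF217), most with RMF217, from 177, 266 and 310.1 CPM to 239, 389 and 403, with overlap (0.57 ± 0.15, adjusted p = 0.0140). Leaving out Col-0 NB replicate 5 or 6 ended the call of THAD with L469, and leaving out replicate 1 or 3 that of THAH with RMF217. The acyltransferase AT5G47980 rose with L264, RMF8 and RMF27, most with RMF8, from 24.1, 38.0 and 50.3 CPM to 65.7, 76.7 and 85.6, without overlap (1.01 ± 0.21, adjusted p = 5.3e-05). With RMF27, THAS1 fell by 0.54 while AT5G47980 rose by 0.91 (adjusted p = 1.6e-04).

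**Figure D2:**
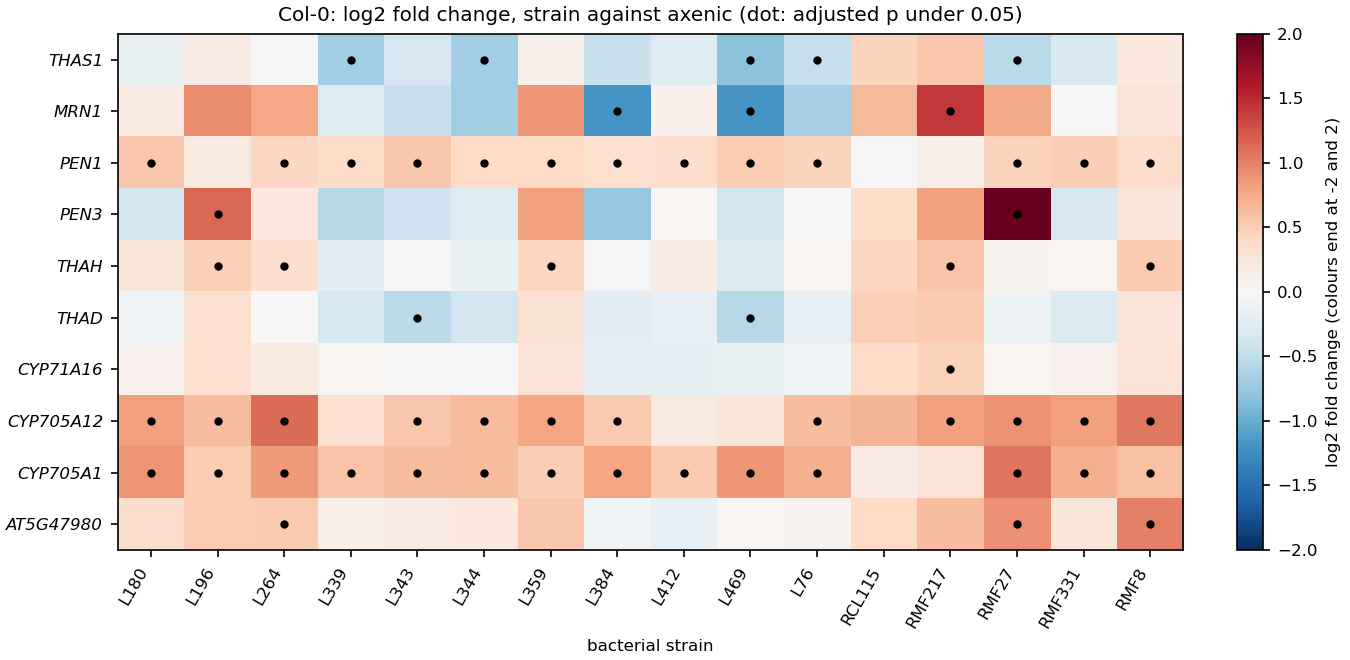
Log2 difference of each member with each of 16 isolates against axenic Col-0, fitted over 222 libraries; colours end at -2 and 2 on the log2 scale, and a dot marks an adjusted p under 0.05. CYP705A1, PEN1 and CYP705A12 hold 14, 13 and 12 rises, and THAS1 holds 5 falls.

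Isolates differed in which members were called. With RMF27, 5 members rose (21.7% of all genes were called higher), with RMF217 the 4 that rose were THAH and the 3 marneral genes (1.9% of all genes), and with L469 the 3 that fell were THAS1, THAD and MRN1 (17.5% of all genes were called lower). With RCL115 edgeR called 0 of the 10 members (0.143% of all genes were called higher), 5 had an unadjusted p under 0.05 (CYP705A12, CYP71A16, THAD, THAH and THAS1), and DESeq2 called 0. All 10 fitted values were positive with RCL115, with a median of 0.41 on the log2 scale, and THAS1 had 549, 597 and 695 CPM, overlapping NB. The 10 values share their NB libraries and many members vary together, so the common sign is not 10 separate observations.

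Root hair markers moved in the same libraries. The 6 root hair genes were called higher in 68 of 96 tests and lower in 1 in Col-0, and their summed level in Col-0 NB ran from 151.8 to 252.1 CPM, none of them being at 0. Their part in the rise of PEN1, CYP705A1 and CYP705A12 was not tested. Of the 60 calls of members in Col-0, all 60 kept their sign within each range of library number, and 45 and 40 were called there in the same direction. The 9 lower calls numbered 4 without Col-0 NB replicate 5 or without replicate 6.

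The third comparison asked how the members respond to bacteria in the mutants, each isolate against NB of the same mutant. Of 160 tests, 28 were higher and 75 lower, where over all genes 12.9% were called higher and 10.8% lower in edgeR's quasi-likelihood test. The arabidiol pair rose in 24 of 32 tests, the thalianol cluster fell in 42 and rose in 1 of 64, the marneral cluster fell in 28 of 48, and PEN3 rose in 3 and fell in 5 of 16. Comparisons within a mutant share its NB libraries. All 103 calls kept their sign within each range of library number.

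Of the cyclases, THAS1 fell in 15 of 16 tests, and in 14 of them its libraries lay wholly below those of the mutant's NB. How often libraries lay apart in this way over all genes was not counted. The largest fall was in nph4-1 with L344, from 644, 942 and 1013 CPM to 204, 277 and 337, without overlap (edgeR, -1.68 ± 0.19, adjusted p = 7.4e-14). The 1 test without a call was nph4-1 with RCL115, where THAS1 stood at 749.5, 889 and 1096 CPM, overlapping NB (0.04 ± 0.18, adjusted p = 0.9757). MRN1 fell in 10 tests, most in nph4-1 with L344, from 29.6, 45.1 and 69.5 CPM to 3.12, 8.57 and 11.0, without overlap (-2.62 ± 0.44, adjusted p = 3.8e-07). PEN1 rose in 11 tests. In gnom184 with L469 it went from 19.0, 21.1 and 23.5 CPM to 26.4, 32.3 and 43.4, without overlap (0.66 ± 0.09, adjusted p = 1.4e-09).

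PEN3 showed the largest fitted change of any member in the 52 comparisons. In gnom184 it went from 0.0549, 0.163 and 1.85 CPM in NB to 5.81, 7.39 and 10.7 with RMF27, without overlap (edgeR, 4.22 ± 0.40, adjusted p = 2.8e-19), or from 40 to 794 counts summed over the 6 libraries. It also rose in gnom184 with L339 (2.24 ± 0.44, adjusted p = 1.2e-05) and L196 (1.603 ± 0.45, adjusted p = 0.0025), with overlap in both. Without replicate 2 of gnom184 NB the rises were 5.43 with RMF27, 3.46 with L339 and 2.82 with L196. Tissue markers moved between the same libraries. From gnom184 NB to RMF27 the summed root hair markers went from 113 CPM (85.5 to 241) to 936 CPM (755 to 1353), as median and range, those of non-hair epidermis from 12.7 CPM (11.8 to 19.8) to 32.9 CPM (29.5 to 35.2) and those of cortex from 15.3 CPM (12.1 to 24.2) to 47.6 CPM (40.7 to 62.6). Root tip markers went from 45.0 CPM (40.8 to 55.1) to 103 CPM (86.3 to 128), endodermis from 185 CPM (144 to 306) to 269 CPM (222 to 323), stele from 480.0 CPM (405 to 502) to 314 CPM (275 to 333) and green shoot from 509.8 CPM (337 to 1356) to 303 CPM (112 to 2893). The stele sum rests largely on PHO1, with a mean of 307 CPM over all libraries against 78.8 CPM for WOL, the next highest. Over all mutant tests the stele markers were called higher in 10 of 80 and lower in 7. None of these markers was at 0 throughout either group, and their part in the rise of PEN3 was not tested. Over all mutant tests the 6 root hair genes were called higher in 50 of 96 and lower in 1. Calls in the other mutants had the opposite sign: PEN3 fell in arf7 arf19 with L344 from 1.28, 2.75 and 3.66 CPM to 0.23, 0.477 and 0.72, without overlap (-2.42 ± 0.40, adjusted p = 1.5e-07), and also in nph4-1 with L344 and in lbd16-1 with L180, L384 and RMF8.

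Of the tailoring genes, THAD fell in 12 of 16 tests, THAH and CYP71A16 in 11 each and AT5G47980 in 4. In nph4-1 with L344, THAH fell from 357, 457 and 508 CPM to 179, 236 and 282 (edgeR, -0.89 ± 0.15, adjusted p = 3.1e-07). THAD fell from 561, 720.1 and 872 CPM to 226, 289.8 and 384.3 (-1.28 ± 0.20, adjusted p = 7.7e-08), and CYP71A16 from 79.7, 90.7 and 113 CPM to 36.9, 48.9 and 55.5 (-1.004 ± 0.14, adjusted p = 1.5e-09). None of these 3 overlapped its NB group. In this comparison 8 of the 10 members fell (11.2% of all genes were called lower) and both genes of the arabidiol pair rose. CYP705A12 fell in 7 of 16 tests, most in gnom184 with L196, from 15.3, 22.0 and 57.7 CPM to 5.71, 11.4 and 17.6, with overlap (-1.18 ± 0.20, adjusted p = 5.3e-07), or -0.82 without replicate 2. CYP705A1 rose in 13 tests, most in gnom184 with L469, from 12.4, 13.5 and 19.2 CPM to 21.6, 26.8 and 38.1, without overlap (1.02 ± 0.12, adjusted p = 1.4e-12).

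AT5G47980 gave the 1 rise of the thalianol cluster, in gnom184 with RMF27, from 9.28, 13.6 and 57.7 CPM to 42.1, 48.5 and 60.6 (edgeR, 1.33 ± 0.22, adjusted p = 5.6e-08), where replicate 2 of NB alone overlapped the RMF27 libraries. Without that library the rise was 1.97, and THAD (0.81), CYP71A16 (0.55) and MRN1 (1.73) were called higher with RMF27 too, while THAS1 still fell (-0.85). AT5G47980 with L339 went from 0.41, not called, to a called 1.05. MRN1 with L196 went from a called -1.12 to -0.03, and CYP71A16 with L469 from a called -0.40 to -0.03. The gnom184 tests then held 12 rises and 10 falls in place of 8 and 12.

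**Figure D3:**
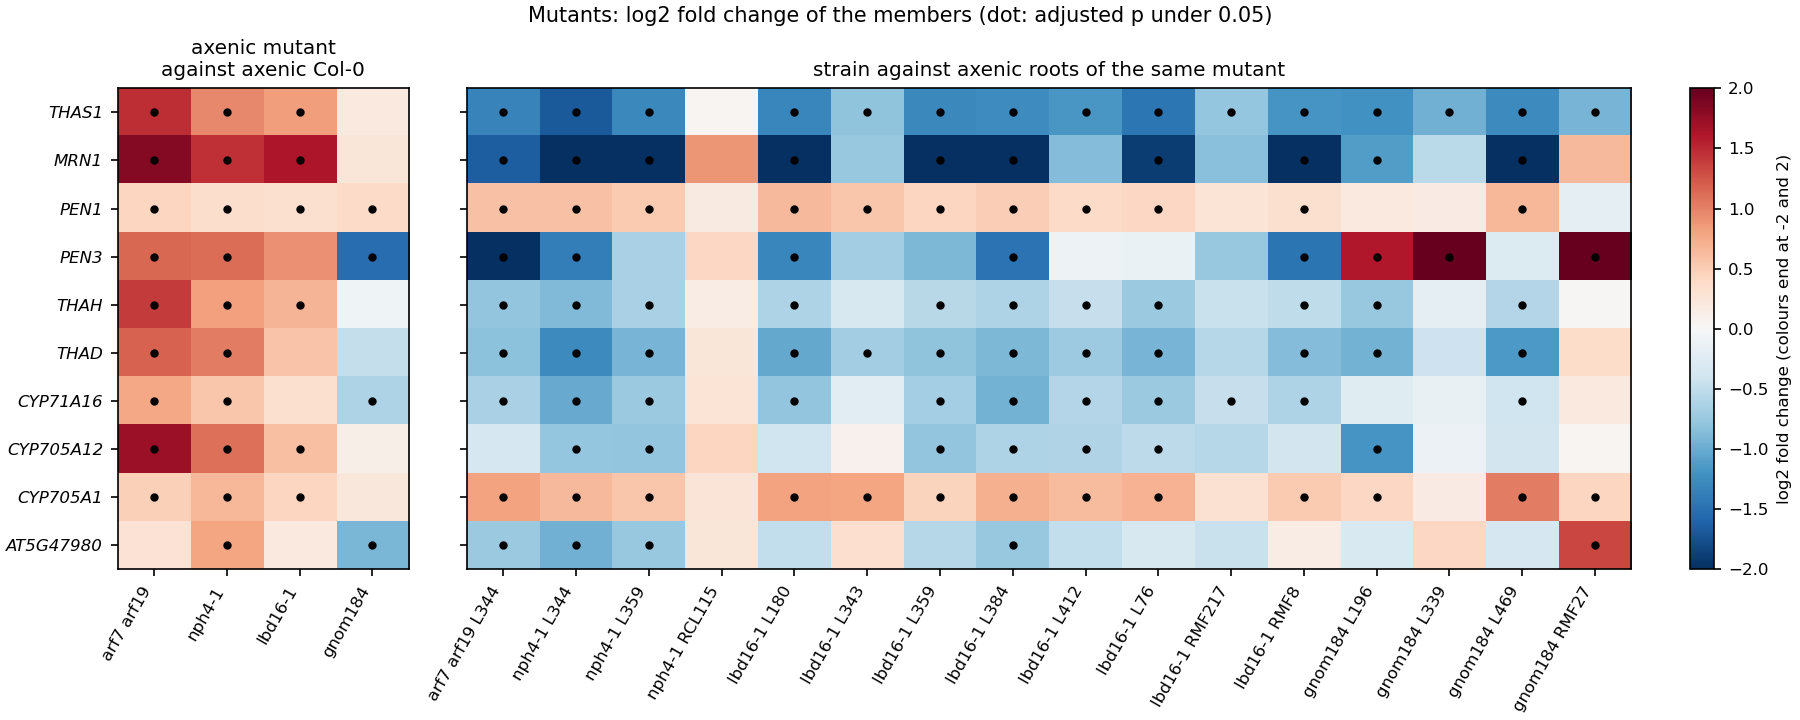
Log2 difference of each member in the 4 axenic mutants against axenic Col-0 and in each mutant with an isolate against NB of the same mutant; colours end at -2 and 2 on the log2 scale and a dot marks an adjusted p under 0.05. THAS1 is called higher in 3 of 4 axenic mutants and lower in 15 of 16 mutant tests with bacteria, while PEN1 and CYP705A1 are called higher in 11 and 13 of these.

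In nph4-1 with RCL115 edgeR called 0 of 10 members (0.00924% of all genes were called higher), 3 had an unadjusted p under 0.05 (CYP705A1, CYP705A12 and MRN1), and DESeq2 called 0. All 10 fitted values were positive, with a median of 0.25 on the log2 scale. They share their NB libraries, so here too the common sign is not 10 separate observations. In the other nph4-1 groups with bacteria THAS1 stood lower, at a mean of 274 CPM with L344 and 360.2 with L359 against 903 with RCL115 and 878 in NB. In Col-0 the means of THAS1 were 278 CPM with L344, 481 with L359, 612 with RCL115 and 450.3 in NB. The levels of nph4-1 and Col-0 with an isolate are set side by side and were not tested against each other.

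The fourth comparison asked whether the response to an isolate differs between a mutant and Col-0, as the interaction of genotype and isolate. Of 160 tests, 2 were higher and 59 lower in edgeR's quasi-likelihood test, where over all genes 2.94% were called higher and 2.46% lower. Of the lower calls, 29 were in the 64 tests of the thalianol cluster, 26 in the 48 of the marneral cluster, 2 in the 32 of the arabidiol pair and 2 in the 16 of PEN3. Each interaction holds NB of the mutant and NB of Col-0, so it shares libraries with the preceding comparisons.

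CYP705A12 had the most calls, 11 of 16, and all 16 of its values were negative. In gnom184 with L196 its median went from 22.0 to 11.4 CPM, and in Col-0 from 24.9 to 35.5, a difference in response of -1.81 ± 0.28 (edgeR, adjusted p = 9.8e-07), and -1.44 without replicate 2 (adjusted p = 5.4e-05). In the same pairing the median of THAS1 went from 511 to 229 CPM in gnom184 and from 465 to 511 in Col-0 (-1.39 ± 0.26, adjusted p = 5.0e-05). THAH differed by -1.23 ± 0.21 (adjusted p = 6.6e-06) and THAD by -1.28 ± 0.28 (adjusted p = 0.0011), or -0.83 without replicate 2. In all, 5 members were called lower there (2.84% of all genes were called lower), and 4 without replicate 2, the lost one being MRN1 (-2.05 with it and -0.96 without).

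MRN1 differed most in lbd16-1 with L359, where its median went from 51.7 to 10.3 CPM, and from 17.4 to 29.1 in Col-0 (edgeR, -2.995 ± 0.59, adjusted p = 3.7e-04). In this pairing 8 members were called lower (2.11% of all genes), in lbd16-1 with RMF217 7 (2.05%) and in nph4-1 with L359 7 (1.52%). In nph4-1 with L359 the median of AT5G47980 went from 61.0 to 39.3 CPM, and from 38.0 to 53.7 in Col-0 (-1.29 ± 0.30, adjusted p = 0.0042). CYP71A16 went from 90.7 to 51.4 CPM there, and from 67.0 to 77.3 in Col-0 (-1.04 ± 0.20, adjusted p = 2.3e-04).

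The arabidiol pair had its called interactions in gnom184 with RMF27. The median of PEN1 went from 21.1 to 18.0 CPM in gnom184 and from 16.3 to 22.5 in Col-0 (edgeR, -0.65 ± 0.14, adjusted p = 9.6e-05), and that of CYP705A1 from 13.5 to 19.1 in gnom184 and from 11.8 to 24.3 in Col-0 (-0.64 ± 0.18, adjusted p = 0.0034). PEN3 gave the 2 higher calls, in gnom184 with L339 (2.80 ± 0.59, adjusted p = 5.0e-04) and RMF27 (2.20 ± 0.55, adjusted p = 0.0011), the latter being 3.29 in the low range of library number and 1.222, not called, in the high one. Without replicate 2 of gnom184 NB these were 4.01 (adjusted p = 2.3e-06) and 3.42 (adjusted p = 3.1e-06), and the high range alone gave a called 3.96 with RMF27 (adjusted p = 0.0030). PEN3 was called lower in lbd16-1 with L359 (-1.72 ± 0.51, adjusted p = 0.0332) and, by -2.17 ± 0.57 (adjusted p = 0.0035), in the double mutant with L344. Without replicate 2 of gnom184 NB the higher calls over all members numbered 6, adding AT5G47980 with L339 (0.92) and, with RMF27, AT5G47980 (1.06), THAD (0.91) and CYP71A16 (0.52), and CYP705A12 with RMF27 was no longer called (-0.50).

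No interaction was called for any member by edgeR or DESeq2 in gnom184 with L469 (0.587% of all genes were called lower), lbd16-1 with L343 (0.0277%), lbd16-1 with L412 (0.213%) and nph4-1 with RCL115 (0.0% lower and 0.00462% higher). At an unadjusted p under 0.05 there were 2, 0, 4 and 0 of 10 members in these pairings. All 61 called interactions had the same sign within each range of library number, and 22 were called in the same direction in the low range and 49 in the high one.

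**Figure D4:**
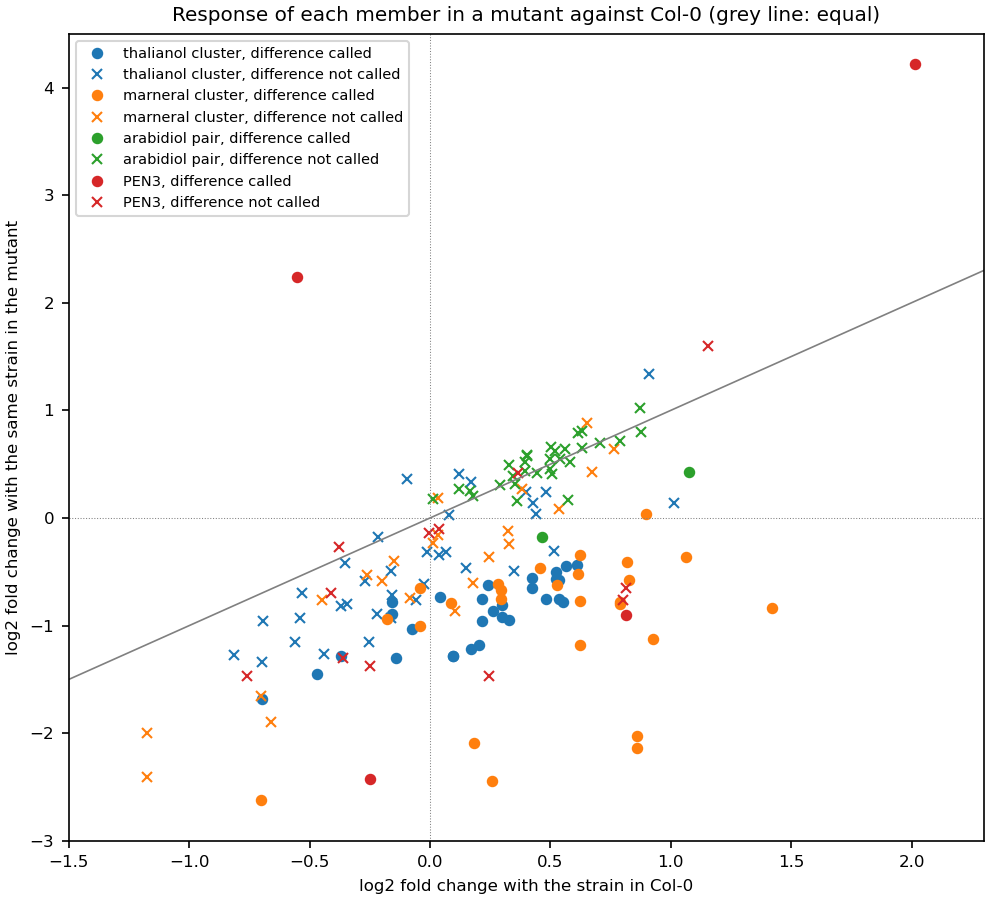
Log2 response to an isolate in Col-0 (horizontal axis) against that in a mutant (vertical axis) for each member in each of 16 mutant and isolate pairings, coloured by cluster; a dot marks a called interaction, a cross one that was not called, and the grey line equality. Of the thalianol and marneral points, 59 of 64 and 46 of 48 lie below the line, and 2 of the 32 arabidiol points are dots.

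Over the 37 group means of log2 CPM, Pearson's r was 0.50 to 0.95 (median 0.80) among the 4 thalianol genes, 0.64 to 0.85 (median 0.78) among the 3 marneral genes and 0.88 between PEN1 and CYP705A1. THAH and THAD were the closest pair (0.95), and THAS1 and AT5G47980 the least alike within a cluster (0.50). Between clusters, r was 0.90 for THAD and CYP71A16 and 0.83 for THAS1 and MRN1. It was -0.37 for PEN1 and THAS1 and -0.46 for PEN1 and CYP71A16, and over the deviations of the 222 libraries from their group means these last values were -0.12 and 0.02. Over the same deviations r was 0.66 to 0.94 (median 0.86) among the thalianol genes and 0.75 to 0.80 among the marneral genes. The groups share axenic controls and the genes share libraries and depth, so these correlations stand as a description.

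**Figure D5:**
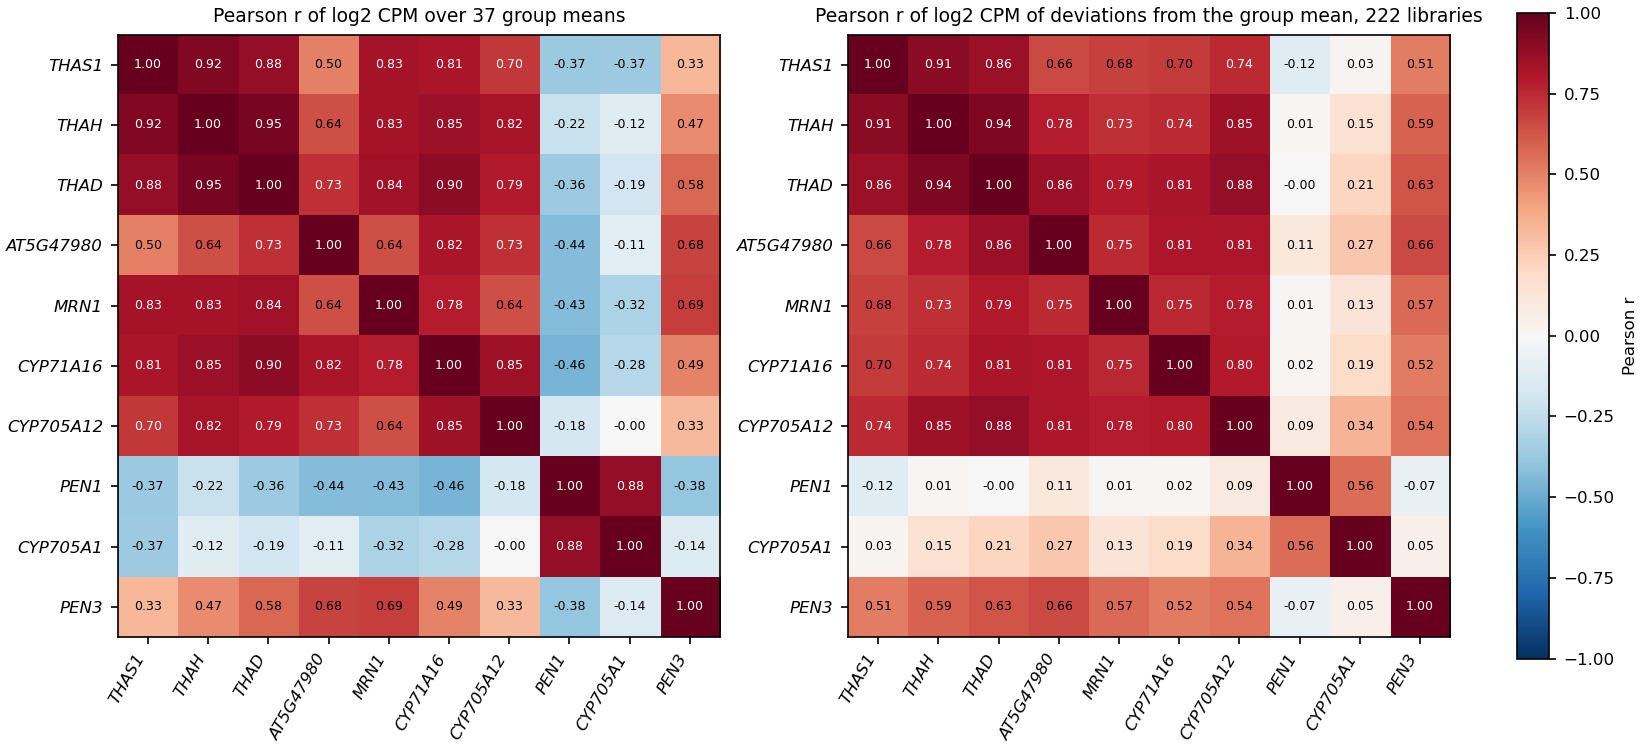
Pearson correlation of log2 CPM between members over 37 group means (left) and over deviations of 222 libraries from their group means (right); colour runs from -1 to 1. Over the 37 group means, values within the thalianol cluster are 0.50 to 0.95, that of the arabidiol pair is 0.88, and PEN1 is below 0 with the thalianol and marneral genes.

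Outside the members, the 5 genes whose 37 group means were most like the mean of the thalianol cluster were SDR4 (AT3G29250, r = 0.93), the annexin gene ANNAT7 (0.90), MVD1 (0.89), AT3G46700 (0.89) and HMG1 (0.87). SDR4 is also known as THAR1, a reductase of the thalianol pathway encoded outside the cluster, MVD1 encodes a mevalonate diphosphate decarboxylase and HMG1 an HMG-CoA reductase. For the marneral cluster the genes were SDR4 (0.90), ANNAT7 (0.88), MVD1 (0.86), AT3G46700 (0.86) and ATSDI1 (0.86), known from sulfur deficiency. For the arabidiol pair they were AT2G43850 (0.90), AT3G47160 (0.90), MLO12 (0.87), AT1G11185 (0.87) and BZO2H3 (0.87). For PEN3 they were its neighbour AT5G36130 (0.83), CAX7 (0.83), AT1G14240 (0.82), UBC6 (0.81) and AT3G45070 (0.81).

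Genes beside the clusters were counted over the 32 tests with bacteria. Over all genes, 12.6% of the Col-0 tests were called higher and 12.8% lower, and 12.9% and 10.8% of the mutant tests. The counts of GFA2, AT5G42570, AT5G42620 and CYP705A2 were near or below these shares. Next to the thalianol cluster, RABA4C was lower in 12 and higher in 0, AT5G47970 lower in 6 and higher in 2, AT5G48020 lower in 19 and GFA2 lower in 5, with r of 0.76, 0.43, 0.57 and 0.01 with the cluster mean. Next to the marneral cluster, AT5G42570 was lower in 2, AT5G42610 lower in 17, and AT5G42620 higher in 4 and lower in 3, with r of 0.37, 0.48 and 0.62. AT5G07035 in the thalianol cluster had 238 counts over 222 libraries and AT5G06325 and AT5G06335 in the marneral cluster had 9 and 4, too few to test. Beside PEN1, CYP705A2 was higher in 3. Beside PEN3, AT5G36130 was higher in 6 and lower in 3, CYP716A2 higher in 6 and lower in 1, and AT5G36160 lower in 28, with r of 0.83, 0.80 and -0.05.

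The thalianol pathway also has genes that are not among the members. The reductase THAR1 fell in 11 of 16 mutant tests, in nph4-1 with L344 by a log2 difference of -0.73 ± 0.13, adjusted p = 3.5e-06 (edgeR), and was called in 0 of 16 in Col-0. The acyltransferase THAA2 fell in 10 of 16 mutant tests and rose in 1 of 16 in Col-0, while the reductase THAR2 rose in 12 of 16 in Col-0 and in 4 of 16 in the mutants. Over the list of 12 pathway and cluster neighbour genes, 54 of 192 tests were higher and 18 lower in Col-0, and 36 higher and 34 lower in the mutants. Their median log2 differences were 0.20 and 0.01, against 0.00 and 0.01 over all genes. The shares called over all genes were 12.6% higher and 12.8% lower in Col-0, and 12.9% and 10.8% in the mutants.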

How the data were processed

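RNA of pooled roots was sequenced in 222 libraries. Read filtering by the authors used fastp 0.20.1. Salmon 1.6.0, with an Ensembl Plants reference, then gave estimated counts that tximport summed to genes, and the deposited matrix holds estimated counts, rounded to whole numbers, with no pooling of libraries. Use of strand is not given in the sources used here. Salmon can share reads between similar paralogs, so members of large P450 families carry that uncertainty.

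Groups were taken from the genotype and treatment labels. Counts were fitted in 1 model of 37 groups with edgeR 4.0.16 in R 4.3.3 (TMM scaling, filterByExpr, robust quasi-likelihood F test), with Benjamini-Hochberg adjustment over the 21635 genes tested in each comparison and a call at an adjusted p under 0.05. Levels are CPM, counts scaled to a common library total after TMM, and log2 differences used a prior count of 0.125. Alternatives included DESeq2 1.42.0, other scaling, filters and thresholds, fits within ranges of library number and leaving out each axenic library. The scripts were tested on simulated data. The 10 members and the gene lists were chosen with earlier results of these data known. Full statistics are given for the called contrast of each member with the largest log2 difference in each comparison and for contrasts going against most others, and 5 genes most like each cluster and the neighbours of each cluster are named. Promoter windows and gene positions came from RefSeq on TAIR10.1. Precision is limited by 6 libraries a group and by low counts of PEN3.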

Additional observations from a re-analysis of the deposited data

Results flagged for a closer look

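Of 72 sets of 6 library values tested for a library far from the others, 9 had one whose gap to its neighbour passed Dixon's critical value. Chance gives about 1 in 20 for a single set. The members share libraries and many vary together, so the 9 flags are not separate observations. In gnom184 NB the highest library, replicate 2 each time, stood far above the next for 7 members. Levels were 79.06 CPM against 13.91 for MRN1, 591.7 against 242.0 for THAD, 57.74 against 18.16 for AT5G47980, 87.94 against 40.37 for CYP71A16, 57.67 against 26.82 for CYP705A12, 1.851 against 0.4853 for PEN3 and 19.17 against 13.74 for CYP705A1. In nph4-1 NB the highest library of CYP705A1 had 22.85 CPM against 19.02, and in Col-0 with RMF217 the lowest library of THAH had 239.1 CPM against 379.7.

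Among the 44 named contrasts, 11 are interactions, and in each the response to an isolate differed between a mutant and Col-0 by the interaction test. Other called interactions are described above. With L196 the log2 response of gnom184 minus that of Col-0 was -1.8051 for CYP705A12, -1.3867 for THAS1, -1.2768 for THAD and -1.2307 for THAH. With RMF27 it was -0.6442 for CYP705A1, -0.646 for PEN1 and 2.2019 for PEN3, and with L339 it was 2.796 for PEN3. In nph4-1 with L359 it was -1.0436 for CYP71A16 and -1.2919 for AT5G47980, and in lbd16-1 with L359 it was -2.9952 for MRN1.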

How the results depend on the processing

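With a limit of at least 1 on the absolute log2 difference, the calls of members fell from 60 to 9 in Col-0 (7 higher, 2 lower), from 103 to 36 in the mutants (5 higher, 31 lower), from 29 to 12 in axenic mutants (11 higher, 1 lower) and from 61 to 40 for interactions (38 lower). At an adjusted p of 0.01 the lower calls in Col-0 were 4 and the interactions 40, of which 38 were lower. In library numbers 1 to 111 alone there were 14 lower calls in Col-0, 16 higher and 6 lower in axenic mutants, and 25 interactions (5 higher, 20 lower), and in 112 to 222 alone there were 2 lower calls in Col-0, 0 lower in axenic mutants and 0 higher interactions. With only the groups of a contrast in the fit, 0 lower calls were left in axenic mutants. The cause of these moves, beyond the smaller number of libraries, was not tested. Shares over all genes were taken at the main setting alone. The counts of calls in this section are therefore not set against all genes.

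Leaving out each axenic library in turn gave 50 to 64 calls in Col-0 (40 to 60 higher, 4 to 10 lower), 98 to 110 in the mutants (28 to 32 higher, 70 to 82 lower), 25 to 31 in axenic mutants (22 to 28 higher, 3 to 4 lower) and 50 to 70 interactions (2 to 6 higher, 48 to 68 lower). The 6 higher interactions came without gnom184 NB replicate 2. DESeq2 gave 51 higher and 10 lower calls in Col-0, 28 and 78 in the mutants, 26 and 3 in axenic mutants and 2 and 62 for interactions. Leaving gnom184 NB replicate 2 out of the high range, an alternative chosen after seeing the data, kept 13 of the named gnom184 contrasts, and 5 were no longer called. Over 44 named contrasts, 975 of 1029 alternative values kept direction and side of the threshold, 54 were no longer past it and 0 reversed. Most of these contrasts were chosen for their size in the same data, and all were called. Some settings, such as an adjusted p of 0.1, could not end a call. The tally therefore does not measure how firm the other calls are. The median r over all pairs of members was 0.6418, against 0.5647 by Spearman correlation and 0.5082 in the 17 Col-0 groups. No paired analysis was possible because the labels carry no replicate numbers (those used here follow accession order) and do not name the run of the experiment, so the range of library number was the nearest block that could be fitted. It gave 61, 104, 29 and 62 calls in these comparisons, with all of the 60, 103, 29 and 61 calls kept. As each group holds 3 libraries of each range, this term could hardly move a difference between groups. Shifts between the ranges that differ from group to group are not taken up by it.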

Other observations

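Other genes of triterpene and sterol metabolism were counted with the members. Of the oxidosqualene cyclases outside the clusters, 8 of 10 were tested, and 42 of 128 tests with bacteria in Col-0 were higher and 2 lower by edgeR's quasi-likelihood test. These were 32.8% and 1.56% of the tests, against 12.6% and 12.8% over all genes. LUP5 and LAS1, the latter a lanosterol synthase, rose with 11 of 16 isolates each, and CAS1, the cycloartenol synthase of sterol synthesis, rose with 8. BARS1, the baruol synthase, rose in Col-0 with RMF27 by 4.09 ± 0.53 (log2, SE, edgeR, adjusted p = 1.2e-11). LUP5 was lower in axenic arf7 arf19, with a log2 difference of -3.83 ± 0.42 (SE, edgeR, adjusted p = 4.2e-15). Both genes had low levels, with means in axenic Col-0 of 0.231 CPM for BARS1 and 0.912 CPM for LUP5. These differences therefore rest on few reads.

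Of the mevalonate and squalene route, 21 genes gave 73 higher and 62 lower of 336 tests in Col-0, and squalene epoxidases moved in opposite directions. The calls of the route were 21.7% higher and 18.5% lower, against 12.6% and 12.8% over all genes in Col-0. SQE4 rose with 15 of 16 isolates in Col-0, by 3.19 ± 0.26 (log2, SE; edgeR, adjusted p = 2.8e-24) with RMF27, while SQE6 fell with 15 and SQE3 with 13. MVK, a mevalonate kinase, rose in 13 of 16 tests in Col-0 and 14 of 16 in the mutants. MVD1 fell in 12 of 16 mutant tests, with a difference of -0.39 ± 0.05 (log2, SE; edgeR, adjusted p = 8.6e-11) in nph4-1 with L344. Of the sterol genes after cycloartenol, 9 genes gave 27 higher and 1 lower of 144 tests in Col-0 and 0 higher and 10 lower of 36 in axenic mutants. Their Col-0 shares were 18.8% and 0.694%, against 12.6% and 12.8% over all genes. In axenic mutants 27.8% of their tests were lower. Over all genes, 25.7% were called lower in arf7 arf19, 17.5% in gnom184, 7.07% in nph4-1 and 4.16% in lbd16-1.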
